A study of Mus musculus with 10 samples.

Results

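The genes described here are the Notch receptors Notch1, Notch2 and Notch3, the ligands Dll1, Dll3, Jag1 and Jag2, and the Fringe glycosyltransferases Lfng, Mfng and Rfng. They were taken by symbol from the platform annotation of the arrays. All 10 listed genes were measured, through 18 probe sets, among 18193 genes on 10 mouse Affymetrix arrays. Each gene is given by its brightest probe set, and the others are set beside it.

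The arrays fell into 3 groups by the sample titles. All cells came from mice with the OG2 Oct4-eGFP reporter transgene and the Rosa26 neo/lacZ marker gene, and the protocols name a cross of these mice with ICR females. Brain NSC (4 arrays) were neural stem cells derived from adult brain. Labelled iPS (3 arrays) were induced pluripotent stem cells made from such NSC with a pMX retroviral vector that carries the mouse Oct4 cDNA; green colonies were picked and expanded on irradiated embryonic fibroblasts with leukaemia inhibitory factor. Labelled iPS-derived NSC (3 arrays) were NSC differentiated from those iPS cells. The number of clones, cultures or animals behind a group was not stated in the labels, so the p values measure only the spread between these arrays, which may be technical.

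Notch receptors sit in the cell membrane and bind Delta-like (Dll) and Jagged (Jag) ligands on a neighbouring cell. Binding lets the protease Adam10 and then gamma-secretase cut the receptor, and the freed intracellular part joins the DNA-binding protein Rbpj and switches on genes of the Hes and Hey families. Fringe enzymes add a sugar to O-fucose on the receptor in the Golgi and so change how it responds to each ligand class. In the brain the pathway is known for holding neural stem cells in the undifferentiated state.

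Marker genes went against the names of the labelled iPS and labelled iPS-derived NSC arrays. Of 8 pluripotency markers, 8 were called higher in labelled iPS-derived NSC than in either other group, and 7 of 8 neural stem cell markers were called lower. Pou5f1, which encodes Oct4, averaged 13.29 ± 0.25 (SD, n = 3) there and lay at 4.49 to 4.78 in labelled iPS and at 4.50 to 4.62 in brain NSC (deposited log2 values). Fabp7, a lipid carrier made by radial glia, lay at 4.23 to 4.65, at 14.15 to 14.19 and at 14.31 to 14.52. Group names are kept as deposited, so every direction below that involves those groups follows names that the markers contradict. Feeder fibroblast markers also moved with the arrays labelled iPS-derived NSC. Their summed linear level over 8 genes was 542 to 1472 there, 232.4 to 251.4 in labelled iPS and 223.5 to 231.9 in brain NSC, with 4 of 8 called higher than in labelled iPS and 5 of 8 higher than in brain NSC. Of all genes, 10.8% were called higher there than in labelled iPS and 11.3% higher than in brain NSC. The shares called lower were 14.4% and 14.0%. Of the other marker lists, 2 of 6 for neurons were called higher there than in either other group. So were 1 of 5 each for the oligodendrocyte lineage, endothelium and microglia. The part of such cells in the results below was not tested. These are bulk samples, in which fewer expressing cells and less RNA per cell cannot be told apart. Log2 values of this kind have no zero, and the lower quartile of all probe sets lay at 4.22 to 4.41 per array.

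The promoters of the 4 genes that changed most are shown because these genes were low together in the arrays labelled iPS-derived NSC. They are RefSeq windows of 300 bases in GRCm38.p6, from 250 bases before to 50 bases after a transcript start, written 5′ to 3′ along the gene; 9 of the 10 genes matched the table, and Mfng did not. Capitals mark matches to TGGGAA, the core bound by Rbpj, on either strand, and to CANNTG, the E-box of basic helix-loop-helix factors, which reads the same on both strands. The windows are Lfng at chr5:140607091-140607390 on the plus strand, Notch1 at chr2:26503773-26504072, Jag1 at chr2:137116471-137116770, and Dll1 at chr17:15375774-15376073 (start 1) and chr17:15376883-15377182 (start 2), the last 4 on the minus strand.
Lfng: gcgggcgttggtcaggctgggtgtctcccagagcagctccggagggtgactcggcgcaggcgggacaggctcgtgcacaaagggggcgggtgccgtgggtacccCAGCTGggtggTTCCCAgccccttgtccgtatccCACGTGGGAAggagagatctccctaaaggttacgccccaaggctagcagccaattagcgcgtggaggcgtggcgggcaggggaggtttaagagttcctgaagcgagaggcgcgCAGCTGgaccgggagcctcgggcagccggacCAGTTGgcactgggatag
Notch1: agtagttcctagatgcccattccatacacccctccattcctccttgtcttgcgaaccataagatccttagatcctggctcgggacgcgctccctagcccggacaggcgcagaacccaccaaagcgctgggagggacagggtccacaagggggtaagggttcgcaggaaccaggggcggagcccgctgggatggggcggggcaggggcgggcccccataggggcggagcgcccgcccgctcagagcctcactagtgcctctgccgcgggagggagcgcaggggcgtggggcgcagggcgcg
Jag1: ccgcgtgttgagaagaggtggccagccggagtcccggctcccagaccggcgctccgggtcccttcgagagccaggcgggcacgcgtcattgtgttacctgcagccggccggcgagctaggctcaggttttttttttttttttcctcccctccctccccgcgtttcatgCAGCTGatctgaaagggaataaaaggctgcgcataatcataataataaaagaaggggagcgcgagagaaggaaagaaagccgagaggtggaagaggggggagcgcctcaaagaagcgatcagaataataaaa
Dll1, start 1: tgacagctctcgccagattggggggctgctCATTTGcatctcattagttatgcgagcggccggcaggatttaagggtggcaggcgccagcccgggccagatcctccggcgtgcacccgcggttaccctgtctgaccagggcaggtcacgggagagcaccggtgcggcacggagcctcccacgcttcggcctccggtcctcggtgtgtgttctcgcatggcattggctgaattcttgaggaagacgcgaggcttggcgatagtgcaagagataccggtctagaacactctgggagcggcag
Dll1, start 2: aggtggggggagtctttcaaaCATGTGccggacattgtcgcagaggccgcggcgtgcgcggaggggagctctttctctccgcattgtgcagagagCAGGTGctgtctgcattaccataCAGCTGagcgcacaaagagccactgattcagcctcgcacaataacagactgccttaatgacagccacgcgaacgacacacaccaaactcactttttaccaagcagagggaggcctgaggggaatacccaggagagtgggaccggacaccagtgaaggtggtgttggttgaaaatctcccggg
The Lfng window held 2 matches to TGGGAA, at bases 116 to 121 on the opposite strand and at bases 143 to 148, and the second shares 2 bases with the E-box at bases 139 to 144. None of the other 9 windows of the members matched that core. Among all 32851 promoter windows, 25.6% held at least 1 such match and 3.79% at least 2. E-boxes numbered 4 in the Lfng window, 3 and 1 in the Dll1 windows, 1 in that of Jag1 and 0 in that of Notch1, and 72.3% of all windows held at least 1. A match describes letters in a window and is not a measured binding site.

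In the arrays labelled iPS-derived NSC, Lfng, Notch1, Dll1 and Jag1 were lower than in both other groups, and the other 6 genes were not called. A gene was called where limma's adjusted p (Benjamini-Hochberg over all genes) was under 0.05 and the difference at least 2-fold. Against labelled iPS, 4 of the 10 genes fell and 0 rose, where 14.4% of all genes were called lower and 10.8% higher. Against brain NSC, 4 fell and 0 rose, where 14.0% of all genes were called lower and 11.3% higher. The median difference of the 10 genes was 0.04 and -0.22 on the log2 scale in these comparisons, and that of all genes was 0.12 and 0.13. Both comparisons share the arrays labelled iPS-derived NSC. Between labelled iPS and brain NSC, 0 of the 10 genes were called, where 1.84% of all genes were called (0.951% higher and 0.89% lower).

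With no demand on the fold, limma's adjusted p was under 0.05 for 6 of the 10 genes in labelled iPS-derived NSC against labelled iPS, for 9 against brain NSC, and for 4 between labelled iPS and brain NSC. The shares of all genes were 61.1%, 62.7% and 20.4%. The arrays of the groups did not overlap for 6, 6 and 4 of the 10 genes in the same order, where 69.5%, 61.3% and 28.3% of all genes did not.

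**Figure D1:**
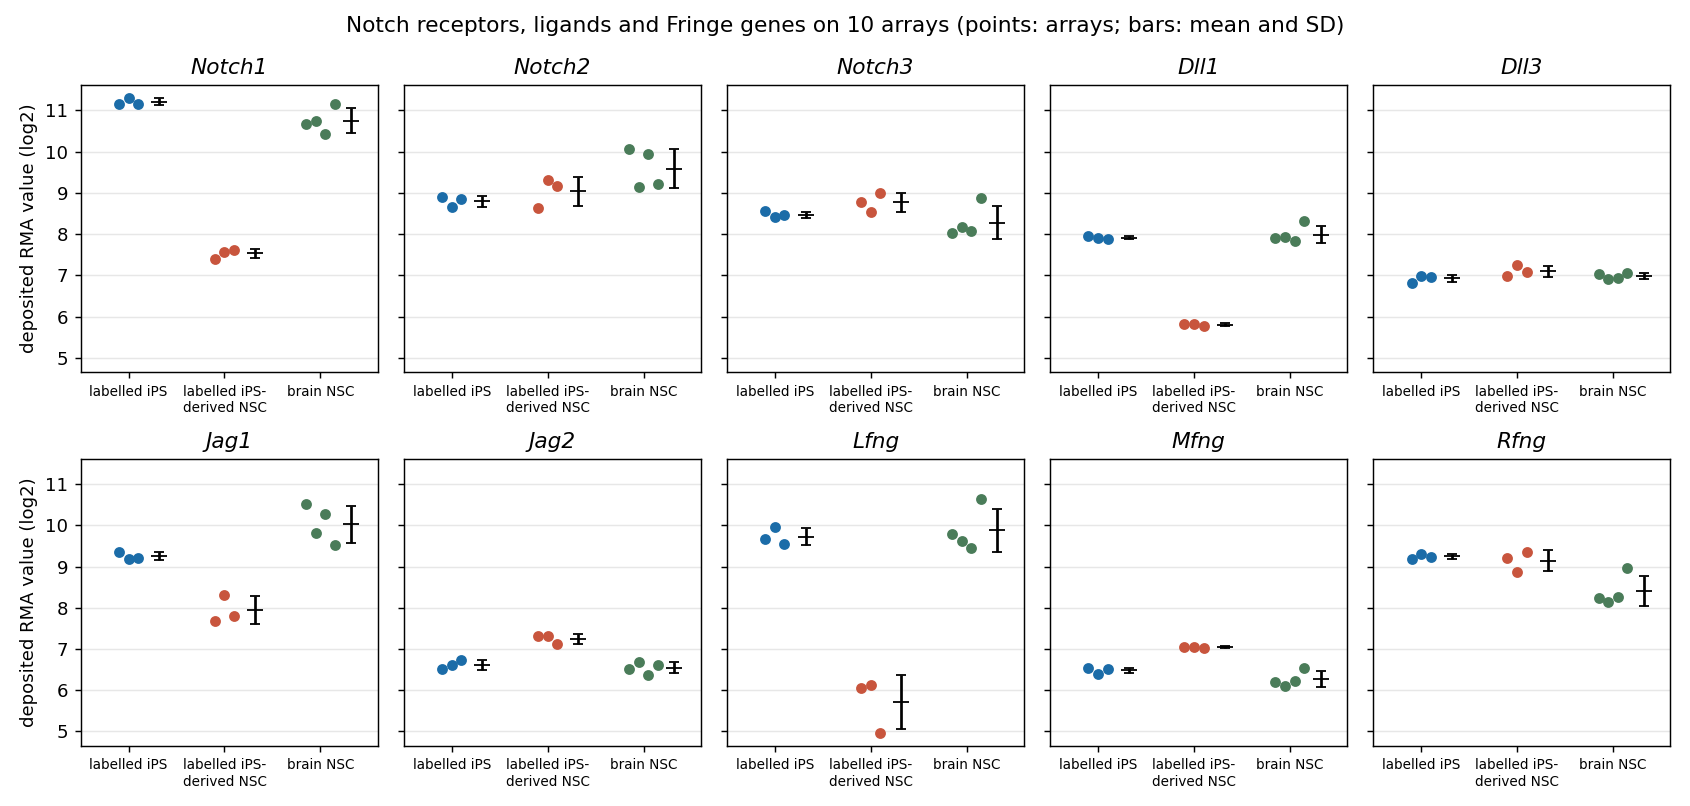
Deposited log2 value of each of the 10 genes (brightest probe set) on every array, by group; points are arrays and bars the mean with SD. Lfng, Notch1, Dll1 and Jag1 sit lowest in the arrays labelled iPS-derived NSC, and Jag2 and Mfng highest there.

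Among the receptors, Notch1, the main receptor of the pathway in neural stem cells, separated the arrays most. It stood at 11.17, 11.30 and 11.17 in labelled iPS, at 10.67, 10.76, 10.43 and 11.15 in brain NSC, and at 7.40, 7.57 and 7.62 in labelled iPS-derived NSC. Every array labelled iPS-derived NSC lay below every other array. The fall was 3.68 ± 0.15 (SE) against labelled iPS, or 12.8-fold (limma adjusted p = 7.07e-11), and 3.22 ± 0.14 against brain NSC, or 9.34-fold (limma adjusted p = 1.19e-10). A second Notch1 probe set gave the same direction with smaller differences, -2.11 ± 0.14 and -1.44 ± 0.14. Notch1 was slightly higher in labelled iPS than in brain NSC, by 0.46 ± 0.14, an amount under 2-fold (limma adjusted p = 0.0344). That adjusted p depended on single arrays. It was 0.127 without labelled iPS replicate 2 and 7.16e-04 without brain NSC replicate 4.

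Notch2 and Notch3, the other measured receptors of this set, were not called in any comparison. Notch2 stood at 8.90, 8.65 and 8.85 in labelled iPS, at 8.64, 9.31 and 9.16 in labelled iPS-derived NSC and at 10.06, 9.14, 9.95 and 9.21 in brain NSC. Its brain NSC arrays thus fell into a higher pair, replicates 1 and 3, and a lower pair, replicates 2 and 4. Against brain NSC, labelled iPS was lower by 0.79 ± 0.22 and labelled iPS-derived NSC by 0.55 ± 0.22, neither of which reached 2-fold (limma adjusted p = 0.0238 and 0.0441). The first was -0.31 with the mean of the probe sets (limma adjusted p = 0.0834), and its adjusted p reached 0.0993 with labelled iPS replicate 2 left out. The second was -0.36 without replicate 1 of labelled iPS-derived NSC and -0.43 with quantile normalization (limma adjusted p = 0.211 and 0.135), and -0.10 with the mean of the probe sets (limma adjusted p = 0.463). A dim Notch2 probe set, with group means of 4.38 to 4.73, gave 0.17 ± 0.09 and 0.35 ± 0.09 instead. Notch3 stood at 8.55, 8.40 and 8.47 in labelled iPS, at 8.79, 8.52 and 8.99 in labelled iPS-derived NSC and at 8.02, 8.17, 8.06 and 8.87 in brain NSC, where replicate 4 lay above the other 3. The groups overlapped in all comparisons of Notch3, and the largest difference was 0.49 ± 0.18, in labelled iPS-derived NSC against brain NSC, where the second probe set gave 0.23 ± 0.19. Without brain NSC replicate 4 it was 0.69.

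The Delta-like ligand Dll1, which neighbouring progenitors use to activate Notch, was also low in labelled iPS-derived NSC. It stood at 7.95, 7.91 and 7.89 in labelled iPS, at 7.90, 7.94, 7.82 and 8.31 in brain NSC and at 5.82, 5.82 and 5.76 in labelled iPS-derived NSC. The last group did not overlap with the others, and its arrays lay close together. The fall was 2.11 ± 0.12 against labelled iPS (4.33-fold; limma adjusted p = 1.90e-09) and 2.19 ± 0.11 against brain NSC (4.56-fold; limma adjusted p = 5.57e-10). Labelled iPS and brain NSC overlapped, with a difference of -0.07 ± 0.11 that turned to 0.03 without brain NSC replicate 4. Dll3, a divergent Delta-like protein that acts within the cell and does not activate receptors in trans, stood between 6.82 and 7.25 on all 10 arrays. Its largest difference between groups was 0.18 ± 0.10, in labelled iPS-derived NSC against labelled iPS. This was 0.10 without replicate 2 of labelled iPS-derived NSC and 0.39 with quantile normalization (limma adjusted p = 0.00547).

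Jag1, a Jagged ligand of neural stem cell niches, showed 3 levels. It stood at 10.52, 9.81, 10.28 and 9.52 in brain NSC, at 9.36, 9.19 and 9.22 in labelled iPS and at 7.69, 8.32 and 7.80 in labelled iPS-derived NSC, and no group overlapped with another. The fall in labelled iPS-derived NSC was 2.09 ± 0.21 against brain NSC (4.27-fold; limma adjusted p = 9.16e-07) and 1.32 ± 0.22 against labelled iPS (2.49-fold; limma adjusted p = 1.66e-04). Labelled iPS was lower than brain NSC by 0.78 ± 0.21, under 2-fold (limma adjusted p = 0.0199). The 3 probe sets of Jag1 differed. The second gave -0.85 ± 0.16 for labelled iPS-derived NSC against labelled iPS and the dimmest gave 0.36 ± 0.15, so that the call was lost with the mean of the probe sets (-0.60). Against brain NSC they gave -1.47 ± 0.15 and -0.15 ± 0.14, and the mean of the probe sets gave -1.24 and kept the call.

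Jag2, the paralogue of Jag1, lay the other way. It stood at 7.32, 7.31 and 7.11 in labelled iPS-derived NSC, at 6.50, 6.60 and 6.73 in labelled iPS and at 6.52, 6.69, 6.38 and 6.61 in brain NSC. The arrays labelled iPS-derived NSC lay above all others, but by 0.64 ± 0.11 against labelled iPS and 0.70 ± 0.10 against brain NSC, which is under 2-fold (limma adjusted p = 1.70e-04 and 3.71e-05). Its dimmer probe set gave 1.33 ± 0.12 and 1.23 ± 0.11, both past 2-fold.

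**Figure D2:**
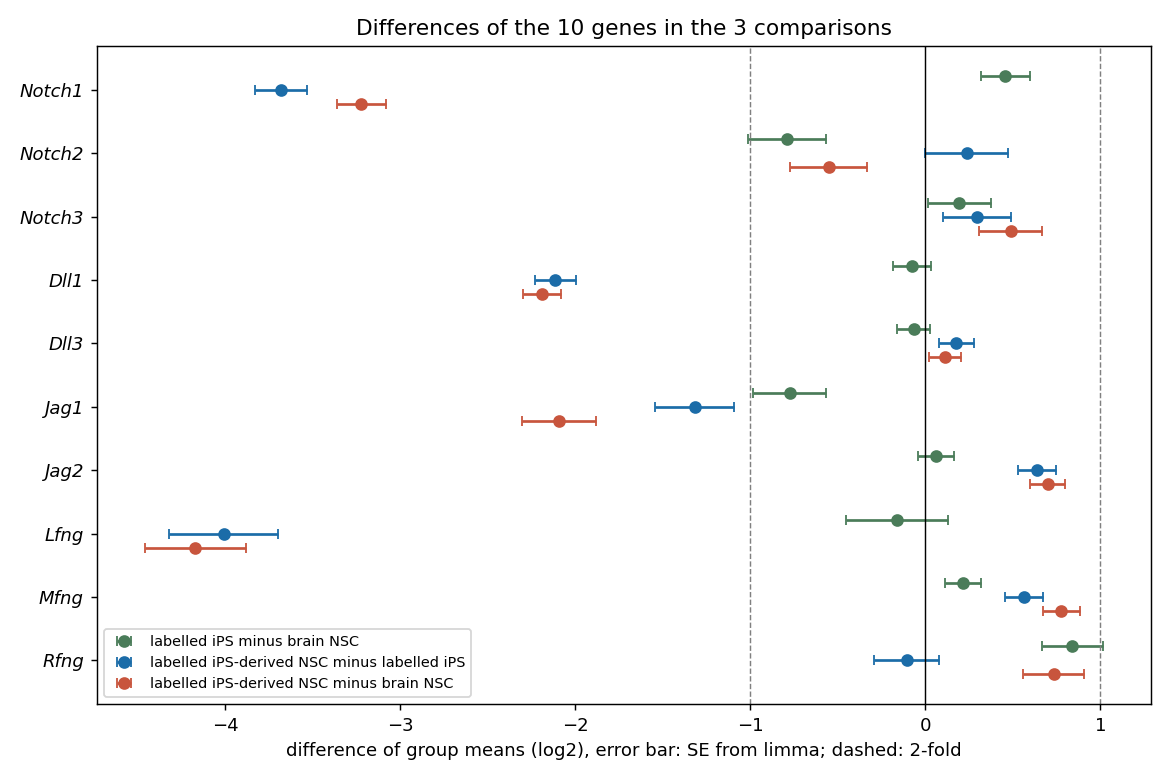
Difference of group means on the log2 scale (x axis) for each gene (y axis) in the 3 comparisons, with the SE from limma as error bars and dashed lines at 2-fold. Lfng at -4.01 and -4.17 and Notch1 at -3.68 and -3.22 lie farthest from 0, and no gene passes 2-fold between labelled iPS and brain NSC.

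Lfng, the Lunatic fringe enzyme, whose gene is itself a known Notch target, had the widest range of the 10 genes. It stood at 9.67, 9.95 and 9.55 in labelled iPS, at 9.80, 9.63, 9.46 and 10.64 in brain NSC and at 6.05, 6.13 and 4.97 in labelled iPS-derived NSC. Replicate 3 of the last group lay well under the other arrays of that group, and brain NSC replicate 4 lay highest of all. The summed feeder fibroblast markers on replicates 1, 2 and 3 labelled iPS-derived NSC were 1472, 846 and 542, lowest on the same replicate 3. Among the other members in that group, Dll1, Jag2 and Mfng were also lowest on replicate 3. Notch1, Notch2, Dll3 and Jag1 were lowest on replicate 1, and Notch3 and Rfng on replicate 2. A link between these sums and the members was not tested. The fall of Lfng was 4.01 ± 0.31 against labelled iPS (16.1-fold; limma adjusted p = 6.85e-08) and 4.17 ± 0.29 against brain NSC (18.01-fold; limma adjusted p = 1.94e-08). Without replicate 3 of labelled iPS-derived NSC the differences were -3.64 and -3.80. A second Lfng probe set gave -2.76 ± 0.30 and -2.68 ± 0.28, both called. It averaged 4.52 in labelled iPS-derived NSC, near the lower quartile of all probe sets on those arrays, 4.37 to 4.41. The brightest probe set also read low on replicate 3, at 4.97. The size of the Lfng falls is thus uncertain.

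Mfng and Rfng, the Manic and Radical fringe enzymes, did not fall with Lfng. Mfng stood at 7.06, 7.06 and 7.02 in labelled iPS-derived NSC, at 6.53, 6.41 and 6.51 in labelled iPS and at 6.21, 6.11, 6.21 and 6.54 in brain NSC. The first group lay above the others by 0.56 ± 0.11 and 0.78 ± 0.10, under 2-fold (limma adjusted p = 5.40e-04 and 1.55e-05). Rfng stood at 9.19, 9.30 and 9.24 in labelled iPS, at 9.21, 8.86 and 9.35 in labelled iPS-derived NSC and at 8.25, 8.15, 8.27 and 8.96 in brain NSC. Its brain NSC replicate 4 sat apart from the other 3 and near the other groups. Labelled iPS was higher than brain NSC by 0.84 ± 0.17 (limma adjusted p = 0.00443), not past 2-fold with all arrays, and by 1.02 and called without brain NSC replicate 4 (limma adjusted p = 2.5e-05). Against labelled iPS, labelled iPS-derived NSC differed by -0.11 ± 0.19 for Rfng, which turned to 0.06 with quantile normalization. Against brain NSC it was higher by 0.73 ± 0.17, under 2-fold (limma adjusted p = 0.00223). The second Rfng probe set gave 0.63 ± 0.20 for labelled iPS against brain NSC, where the arrays overlapped. For labelled iPS-derived NSC that probe set gave -0.23 ± 0.21 against labelled iPS. Against brain NSC it gave 0.40 ± 0.20 (limma adjusted p = 0.105).

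Ratios of paralogues within each array are given as a description, with no test, since the 6 pairs were chosen after the values were seen and each sets a gene that fell against one that did not. In labelled iPS-derived NSC against brain NSC, the log2 ratio changed by -2.67 for Notch1 over Notch2, -3.71 for Notch1 over Notch3, -2.30 for Dll1 over Dll3, -2.79 for Jag1 over Jag2, -4.95 for Lfng over Mfng and -4.90 for Lfng over Rfng. Against labelled iPS the changes ran from -1.95 for Jag1 over Jag2 to -4.57 for Lfng over Mfng. Between labelled iPS and brain NSC, where no member was called, the ratio was higher by 1.25 for Notch1 over Notch2 and by 0.26 for Notch1 over Notch3. It differed by -1.001 for Lfng over Rfng, -0.84 for Jag1 over Jag2, -0.37 for Lfng over Mfng and -0.01 for Dll1 over Dll3.

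**Figure D3:**
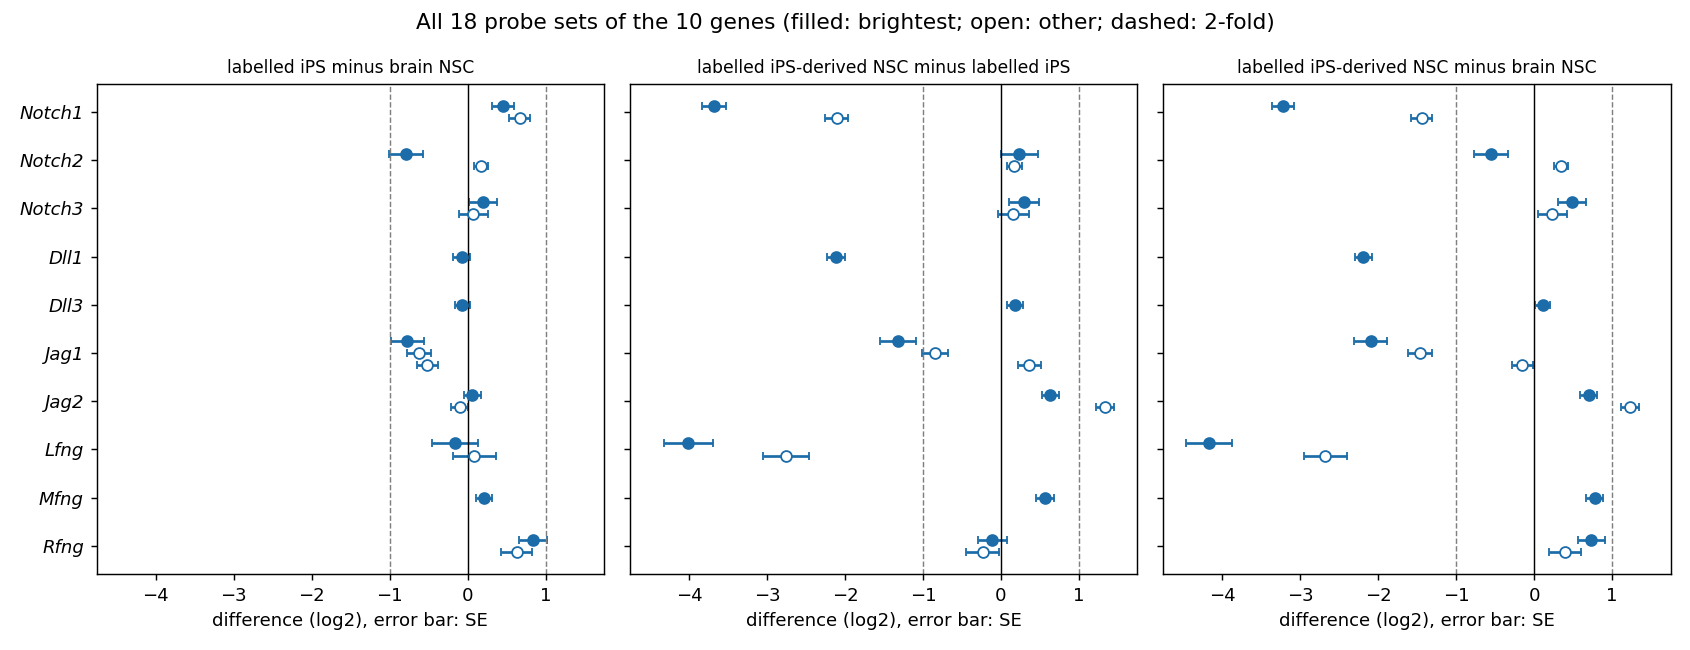
Difference of group means (log2, x axis) with the SE from limma for all 18 probe sets of the 10 genes, in 1 panel per comparison; filled points are the brightest probe set of a gene. The Notch1 and Lfng probe sets lie on the same side in the middle and right panels, and the 3 Jag1 probe sets spread from -1.32 to 0.36 in the middle panel.

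Over single probe sets, with p values adjusted over all 34945, labelled iPS-derived NSC had 6 of the 18 lower and 1 higher than labelled iPS, where 14.0% of all probe sets were called lower and 9.68% higher. Against brain NSC, 7 were lower and 1 higher, where 14.0% and 9.87% were called. The 1 higher probe set was that of Jag2 in both. Between labelled iPS and brain NSC, 0 of the 18 were called, where 1.22% of all probe sets were called higher and 1.16% lower. Limma gave an unadjusted p under 0.05 to 4 of the 10 genes there (Notch1, Notch2, Jag1 and Rfng) and to 32.5% of all genes, and its test against a minimum of 1.5-fold called 0.

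The brain NSC arrays differed among themselves in these genes. Replicate 4 was the highest of the 4 for 7 of the 10 genes (Notch1, Notch3, Dll1, Dll3, Lfng, Mfng and Rfng) and the lowest for Jag1. Relative to the mean of replicates 1 to 3, it stood 1.01 higher for Lfng, 0.78 for Notch3, 0.73 for Rfng and 0.53 for Notch1, and -0.69 for Jag1 and -0.51 for Notch2. Over the 10 genes, its root mean square difference from the other brain NSC arrays was 0.53 to 0.68 and from the labelled iPS arrays 0.38 to 0.43. Over all 18193 genes these were 0.32 to 0.37 and 0.32 to 0.33. Without replicate 4, 537 of all genes were called between labelled iPS and brain NSC, against 335 with it.

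**Figure D4:**
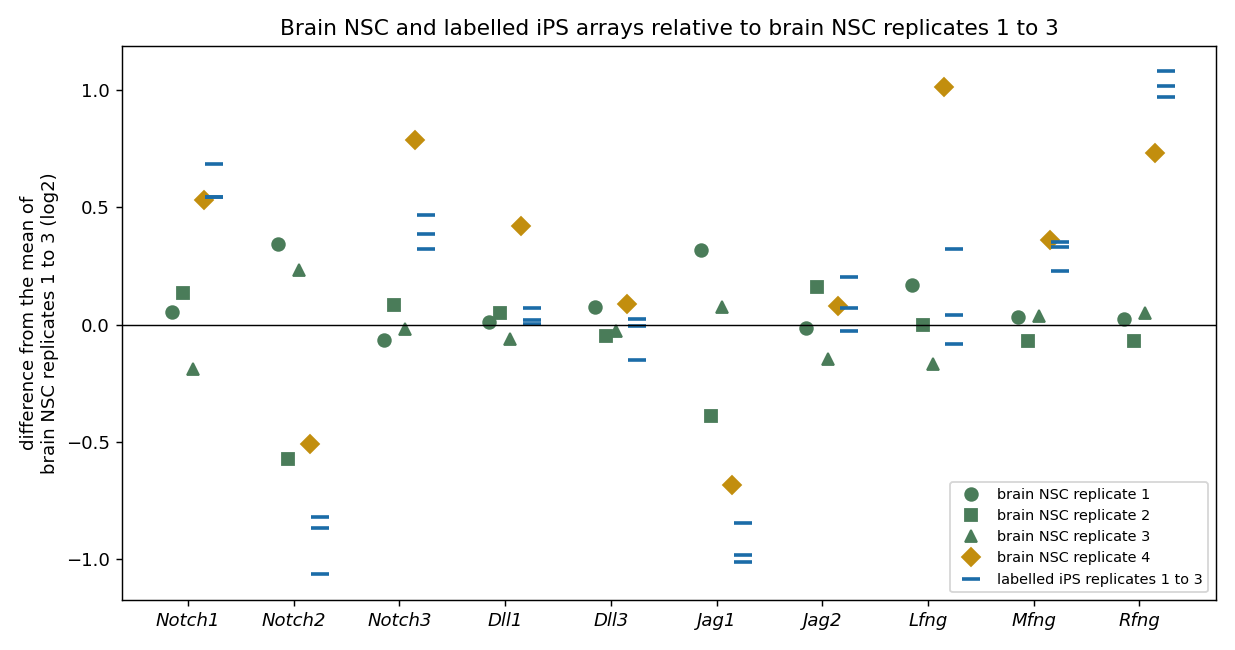
Difference of each brain NSC array (green, replicate 4 as yellow diamonds) and labelled iPS array (blue dashes) from the mean of brain NSC replicates 1 to 3, on the log2 scale (y axis), for each gene (x axis). Replicate 4 lies at 1.01 for Lfng and at -0.69 for Jag1.

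Other genes of the pathway were taken from 7 lists chosen with earlier results of these data known; 58 of 64 were measured. In labelled iPS-derived NSC, 13 were lower and 6 higher than in labelled iPS (32.8%, where 25.3% of all genes were called), and 17 were lower and 4 higher than in brain NSC (36.2%, where 25.4% were). Their median differences were -0.03 and -0.09, beside 0.12 and 0.13 over all genes. Between labelled iPS and brain NSC, 3 were lower and 0 higher (5.17%, where 1.84% of all genes were called).

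Of 8 genes listed as targets, labelled iPS-derived NSC had 3 lower and 0 higher than labelled iPS. Against brain NSC, 5 were lower and 0 higher. Of all genes, 14.4% were called lower and 10.8% higher against labelled iPS. Against brain NSC these shares were 14.0% and 11.3%. The same shares of all genes stand beside the counts of each list that follows. Nrarp, a feedback inhibitor that Notch induces, fell by 2.92 ± 0.17 against labelled iPS, from 9.43, 9.62 and 9.55 to 6.93, 6.13 and 6.79. Hes6, a Hes family member that counteracts Hes1, fell by 3.75 ± 0.14 against labelled iPS and 3.48 ± 0.13 against brain NSC. It is counted in the list as a Hes family member, and its fall is not read as a fall of Notch output. Hes5, a main Notch effector of neural stem cells, did not follow Notch1: it stood at 9.82, 9.53, 9.61 and 8.81 in brain NSC but at 6.08, 5.67 and 5.83 in labelled iPS, where Notch1 was high, and at 5.30, 5.38 and 5.37 in labelled iPS-derived NSC. Its fall against brain NSC was 3.58 ± 0.19 in labelled iPS and 4.09 ± 0.19 in labelled iPS-derived NSC on its brightest probe set, and the other probe set gave -1.67 and -1.83. The limma adjusted p values of Nrarp, Hes6 and the brightest Hes5 probe set in these differences were 7.49e-08 or less.

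Of 10 genes of the nuclear complex, 2 rose in labelled iPS-derived NSC against labelled iPS and 1 against brain NSC, and 0 fell. Rbpj, the DNA-binding protein of the pathway, stood at 11.37, 11.37 and 11.28 in labelled iPS-derived NSC, at 8.91, 9.06 and 8.96 in labelled iPS and at 9.33, 9.15, 9.26 and 9.22 in brain NSC. Its direction was thus opposite to that of Notch1. It rose by 2.36 ± 0.09 and 2.10 ± 0.08 (limma adjusted p = 3.75e-11 and 5.25e-11), and its dimmer probe sets gave 1.38 and 2.10 against labelled iPS and 1.14 and 1.43 against brain NSC. Kat2b, a histone acetyltransferase, rose by 1.43 ± 0.09 against labelled iPS (limma adjusted p = 5.94e-09).

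Of 8 genes for receptor cleavage, labelled iPS-derived NSC had 3 lower than labelled iPS and 4 lower than brain NSC, and 0 higher. Adam10, which makes the first cut after ligand binding, fell (-2.04 ± 0.13 and -2.38 ± 0.13), as did Aph1b, a gamma-secretase subunit (-3.50 ± 0.22 and -3.98 ± 0.21) (limma adjusted p of 1.22e-08 or less). Of the 4 Adam10 probe sets, a dim one gave 0.51 and 0.24 and was not called, and their mean gave -1.04 against labelled iPS, still called. For labelled iPS against brain NSC, the brightest gave -0.34 and the dim one -0.28, not called. The probe sets with means of 8.67 and 9.26 over all arrays gave -1.20 and -1.19 there, both called. Of 3 further glycosylation genes, 1 fell against brain NSC and 0 against labelled iPS. This was Pofut1, the enzyme that adds the O-fucose which Fringe extends, at -1.22 ± 0.11 (limma adjusted p = 2.58e-07), which was no longer called when its probe sets were averaged (-0.35).

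Of 18 genes for ubiquitin ligases, endocytosis and Numb, labelled iPS-derived NSC had 5 lower and 2 higher than labelled iPS, and 5 lower and 1 higher than brain NSC. Dtx4, a Deltex ubiquitin ligase, fell (-3.74 ± 0.15 and -4.06 ± 0.14), as did Neurl1b, a Neuralized ligase that acts on ligands (-3.28 ± 0.20 and -3.89 ± 0.19). Of 7 further receptors and ligands, 2 rose and 2 fell in either comparison. The rises include Dlk1, which stood at 0.05 and 0.04 without probe sets that can cross-hybridise. Dner, a Delta/Notch-like neuronal protein, fell by 4.80 ± 0.18 against labelled iPS and 6.47 ± 0.17 against brain NSC, and Cntn1, a contactin reported to bind Notch, fell too (-3.76 ± 0.17 and -5.03 ± 0.16). The mean of the Cntn1 probe sets gave -2.20 and -3.30, still called. The largest limma adjusted p of Dtx4, Neurl1b, Dner and Cntn1 in these comparisons was 5.94e-09. In labelled iPS-derived NSC, Dner (4.86), Cntn1 (4.31) and Neurl1b (4.40) averaged near the lower quartile of all probe sets on those arrays, 4.37 to 4.41. The size of their falls is thus uncertain. Dner and Cntn1 were also lower in labelled iPS than in brain NSC, by 1.67 ± 0.17 and 1.27 ± 0.16 (limma adjusted p = 2.67e-05 and 1.34e-04). Of 4 measured proneural factors, which Hes proteins repress, 0 were called in any comparison; limma gave all 4 an adjusted p under 0.05 in labelled iPS-derived NSC against each other group, at differences of 0.31 to 0.81, as it did 61.1% of all genes against labelled iPS and 62.7% against brain NSC.

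**Figure D5:**
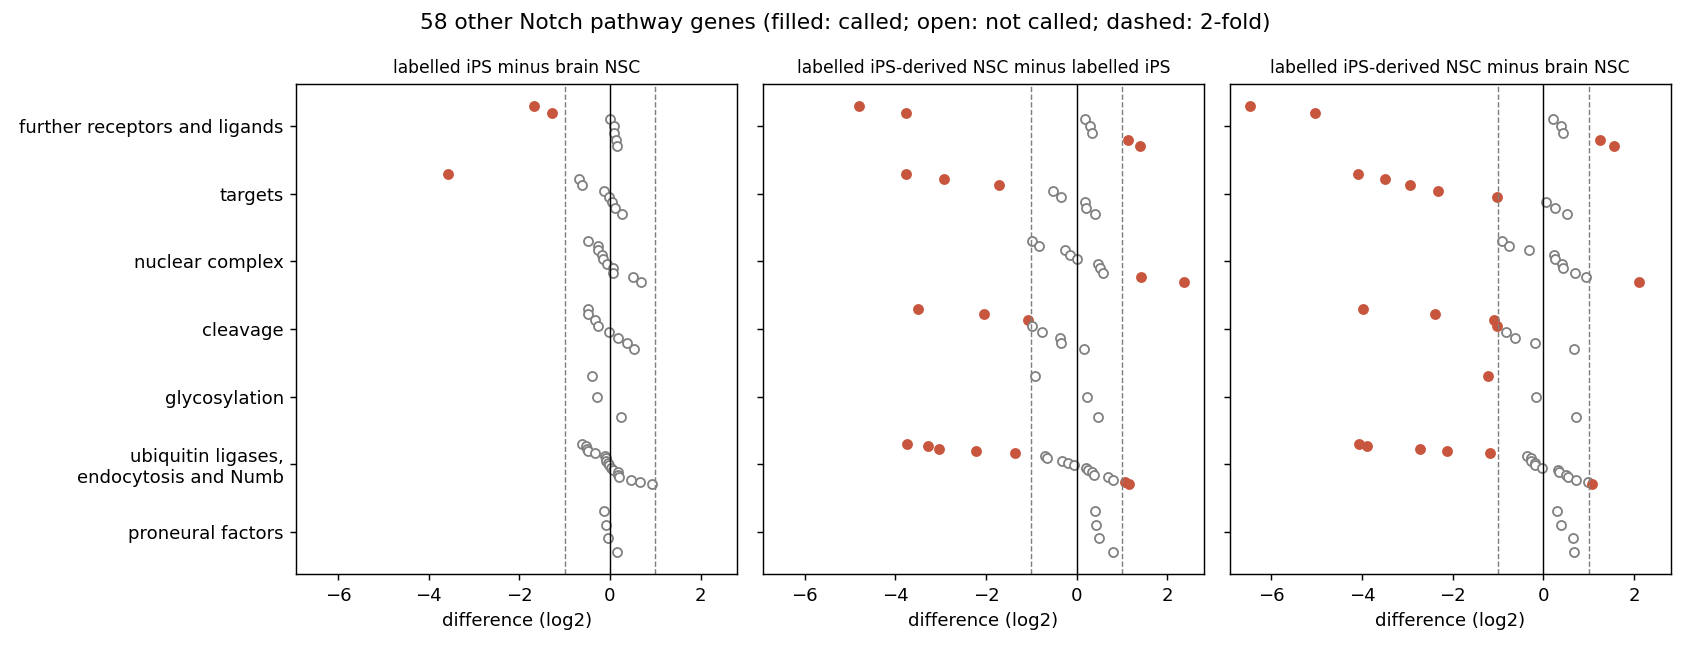
Difference of group means (log2, x axis) for 58 other Notch pathway genes in 7 lists (y axis), in 1 panel per comparison; filled points were called. The left panel holds 3 called genes, all lower (Hes5, Dner and Cntn1), and the other panels hold 19 and 21.

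The genes with array profiles most like those of the 4 called members were found by the root mean square difference of centred log2 profiles over the 10 arrays. Nab2, a corepressor of Egr factors, differed from Notch1 by 0.11 and the tyrosine phosphatase Ptpn9 by 0.12. Acsl5, an acyl-CoA synthetase, and Msn, the membrane linker moesin, lay 0.07 and 0.08 from Dll1. The zinc finger genes Zfp367 and Zfp943 lay 0.15 and 0.16 from Jag1. Sox3, a transcription factor of neural progenitors, lay 0.25 from Lfng, and Garem2 lay 0.28 from it. Among the 10 genes themselves, Jag2 and Mfng were the most alike, at 0.16. The profiles were not scaled, so genes with small ranges, such as these, can lie close for that reason.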

How the data were processed

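The authors deposited 1 table with a log2 value for each probe set and array. Per the labels it came from RMA, run in Bioconductor, of a version not stated there. RMA commonly makes the arrays' distributions alike and compresses differences of dim genes. The deposited distributions still differed by group. The upper quartile was 7.79 to 7.83 in labelled iPS-derived NSC and 8.02 to 8.12 on the other arrays. The lower quartile was 4.37 to 4.41 and 4.22 to 4.28 in the same order. Of 45101 probe sets, 34945 had 1 gene symbol in the platform annotation, giving 18193 genes; 34741 were found in RefSeq (GRCm38.p6). The number of arrays limits the precision. Group differences were taken from limma 3.58.1 under R 4.3.3 (lmFit, eBayes) over all 10 arrays in a layout of 3 groups, with 7 residual and 5.95 prior degrees of freedom, and two-sided p values were adjusted with the Benjamini-Hochberg method. The fit was tested on simulated data. Figures used matplotlib 3.10.9. Alternatives varied the probe set, scaling, filter, test and arrays. The members and gene lists were chosen with earlier results of these data known. Named were the 10 members, at most 2 called genes with the largest difference per pathway list and comparison, the 2 genes nearest in profile to each called member, and 2 label markers.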

Additional observations from a re-analysis of the deposited data

Results flagged for a closer look

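In the group of 4 brain NSC arrays, 3 of 30 probe sets tested had 1 array whose gap to the next exceeded Dixon's critical share of the group's range; chance gives about 1 in 20. All 3 were the highest value of replicate 4. They were Rfng at 8.96, with the next array at 8.27, the second probe set of Rfng at 8.63, with the next at 7.79, and the second probe set of Notch3 at 6.87, with the next at 6.26. Probe sets of 1 gene read the same RNA and are not separate evidence.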

How the results depend on the processing

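Between labelled iPS and brain NSC, the count of called genes among the 10 was 0, and 1 (Rfng, at 1.02) with the replicate block, which sets the replicate number of the titles as a block; the range with 1 array left out was 0 to 1. The block gives brain NSC replicate 4 a level of its own, so that these differences equal those without that array, though the errors differ; same-numbered arrays did not deviate together (correlations of -0.21 to 0.13 over 9 pairs). Of all genes, 335 were called there, but 223 with the mean of probe sets, 209 without dim genes (mean under 7), 183 against a minimum of 1.5-fold, 537 with the replicate block and 296 to 537 with 1 array left out. Small differences changed sign. These were Dll1 (0.0305) and Lfng (0.0923) with the block or without brain NSC replicate 4, Jag2 (-0.0194) with the mean of probe sets, and, for labelled iPS-derived NSC against labelled iPS, Rfng with quantile normalization (0.0602) or without replicate 2 of the former (0.0333). With 1 array left out, the range was -0.13 to 0.03 for Dll1, -0.30 to 0.09 for Lfng and -0.21 to 0.03 for Rfng. The 4 falls in labelled iPS-derived NSC kept their calls in every alternative run, save Jag1 against labelled iPS with the mean of probe sets (-0.60). Over the alternatives, 554 of the members' values kept direction and side of the threshold. The cause of these changes was not tested.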

Other observations

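Further pathway genes, chosen after their values were seen, moved in the arrays labelled iPS-derived NSC. The Notch target Hey1 fell against labelled iPS (-1.71 ± 0.10) and brain NSC (-2.32 ± 0.09). So did Mib1, a ubiquitin ligase that drives ligand endocytosis (-2.22 ± 0.10 and -2.71 ± 0.10), and the endocytic adaptor Epn2 (-3.04 ± 0.21 and -2.12 ± 0.20). With the mean of the probe sets these were -1.26 and -1.73 for Mib1 and -1.66 and -1.14 for Epn2, still called. Egfl7, a secreted protein with EGF repeats, rose by 1.13 ± 0.11 and 1.26 ± 0.10. The imprinted Dlk1, a non-canonical ligand, rose by 1.41 ± 0.15 and 1.56 ± 0.14, but stood at 0.05 and 0.04 without probe sets that can cross-hybridise. All limma adjusted p values of these brightest probe sets were 1.57e-06 or less.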
